A study of Mus musculus with 16 samples.

Results

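The genes described here encode 8 proteins of the secondary, or specific, granules of neutrophils: Camp, Ngp, Ltf, Lcn2, Olfm4, Cd177, Pglyrp1 and Hp. They were taken by symbol from a table of 25562 genes, and all 8 had a row and passed the filter on low counts, as did 15541 genes in all. Their open chromatin was followed in a deposited ATAC-seq table of 40796 regions, 11 of which carry the Ensembl identifier of a member. The members were chosen by their RNA difference between Nrp1 high and Nrp1 low cells in the libraries described here. That difference is therefore a description and supports nothing, while ATAC-seq is a separate assay on other libraries.

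Cells were sorted by surface Nrp1, neuropilin-1, from spleens of wild type mice aged 7 days, C57BL/6J for RNA-seq and C57BL/6 for ATAC-seq, and no group carries an added allele or agent in the labels. RNA was read in 3 Nrp1 high and 3 Nrp1 low libraries of 80000 cells each, and ATAC-seq in 5 Nrp1 high and 5 Nrp1 low libraries of 50000 cells each. The labels name the cell type as myeloid derived suppressor cells, and the protocol speaks of monocytes. The descriptions of the RNA libraries read M_MDSC, with Nrp1 pos for high and Nrp1 neg for low. The labels do not state by which surface markers beside Nrp1 the cells were gated, and they mention pooled RNA without the number of animals behind a library. The transcript of Nrp1 stood at 97.3, 89.8 and 111.4 CPM (defined below) in Nrp1 high, against 20.1, 57.8 and 41.5 CPM in Nrp1 low, with no overlap (log2 1.32 ± 0.36 SE, edgeR adjusted p = 0.259).

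Neutrophil granules are filled in the order in which their proteins are made during differentiation in the marrow. Proteases of the primary granules come first, secondary granule proteins at the myelocyte and metamyelocyte stages, and gelatinase granule proteins last. The transcription factor C/EBP epsilon is required for secondary granule genes, and mice without it have neutrophils that lack these granules. The secreted proteins kill microbes, withhold iron or bind bacterial wall fragments, and some members, such as Lcn2 and Hp, are also made outside neutrophils as acute phase proteins.

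The sequences just before the start sites are shown first because some of the ATAC regions lie on them. Each is the 250 bases upstream of the RefSeq start on GRCm38.p6, 5′ to 3′ on the gene's strand. Capitals mark matches to the C/EBP core TTNNGNAA or the PU.1 core GAGGAA on either strand. The windows are chr9:109849457-109849706 on the minus strand for Camp, and chr7:18884440-18884689, chr9:110419558-110419807 and chr9:111019042-111019291 on the plus strand for Pglyrp1, Ngp and Ltf.
Camp: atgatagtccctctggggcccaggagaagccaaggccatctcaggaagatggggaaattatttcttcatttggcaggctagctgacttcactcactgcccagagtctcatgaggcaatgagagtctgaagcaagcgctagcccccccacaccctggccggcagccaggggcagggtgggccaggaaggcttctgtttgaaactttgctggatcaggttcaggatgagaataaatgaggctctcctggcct
Pglyrp1: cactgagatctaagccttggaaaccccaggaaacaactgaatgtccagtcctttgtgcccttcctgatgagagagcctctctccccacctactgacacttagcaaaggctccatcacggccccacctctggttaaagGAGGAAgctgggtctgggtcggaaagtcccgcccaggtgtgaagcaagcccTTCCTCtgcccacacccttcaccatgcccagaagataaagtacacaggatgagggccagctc
Ngp: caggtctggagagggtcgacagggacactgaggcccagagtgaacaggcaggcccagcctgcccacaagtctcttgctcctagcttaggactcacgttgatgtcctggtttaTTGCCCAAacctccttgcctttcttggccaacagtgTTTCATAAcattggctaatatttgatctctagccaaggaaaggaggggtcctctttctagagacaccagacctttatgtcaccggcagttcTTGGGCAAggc
Ltf: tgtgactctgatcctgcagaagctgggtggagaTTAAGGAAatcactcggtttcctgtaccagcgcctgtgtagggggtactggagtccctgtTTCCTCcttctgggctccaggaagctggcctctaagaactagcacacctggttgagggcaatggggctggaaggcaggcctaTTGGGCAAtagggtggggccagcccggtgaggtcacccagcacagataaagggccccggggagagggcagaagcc

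Camp and Pglyrp1 are shown because an ATAC region covers their start, and Ngp and Ltf because both hold the C/EBP core match TTGGGCAA on the gene's strand, 11 bases before the start in Ngp and 75 bases before it in Ltf. Ngp holds the same letters on the other strand, printed as TTGCCCAA, 138 bases before the start. A promoter was in the RefSeq table for 7 of the 8 genes, all but Hp. The C/EBP core was found in 5 of these 7 windows, those of Lcn2, Cd177, Ngp, Ltf and Olfm4, and in 36.8% of all 32851 promoter windows of that length. Its 3 matches in Ngp were the most in a member. The PU.1 core was found in 5 of 7, Lcn2, Pglyrp1, Cd177, Ltf and Olfm4, against 23.3% of all windows. The 6 letters of a GFI1 core, AAATCA, were found in Ltf alone among the 7, where they overlap the end of a C/EBP match, against 12.4% of all windows. The TATA box TATAAA was found in Cd177 alone, against 12.4% of all windows. Camp held none of these 4 motifs in this window, which says only that these letters are not there. The windows of the 7 genes were 52.4 to 59.2% G and C, with a median of 52.4% over all windows.

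The RNA libraries held 28440098 to 31428419 counts in Nrp1 high and 23395363 to 35127433 in Nrp1 low cells. Levels are CPM, a gene's count relative to the size of its library, with sizes scaled by TMM, a method that takes most genes as equal between libraries. Differences are log2 fold changes, Nrp1 high minus Nrp1 low, with the standard error (SE) from edgeR. Counting error is not the main limit for these genes, since the lowest count of a member in a library was 594. The 8 genes together took 0.317, 0.393 and 0.318% of the counts in the 3 Nrp1 high libraries, against 2.72, 2.01 and 2.54% in the 3 Nrp1 low libraries. The 95% Wilson intervals of these shares reached at most 0.00594 percentage points to either side. They take the deposited counts, which are estimated, as counted reads, and at best cover counting error only. Camp and Ngp made up 50.3 to 56.0% of the counts of the 8 in Nrp1 high and 77.1 to 81.2% in Nrp1 low, and Hp 25.3 to 28.3% in Nrp1 high and 5.25 to 6.08% in Nrp1 low.

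Camp and Ngp, the cathelicidin-like members, differed most. Camp (ENSMUSG00000038357, chromosome 9, 109847377 to 109849456) encodes the precursor of the antimicrobial peptide CRAMP. It stood at 644.5, 705.0 and 580.0 CPM in the Nrp1 high libraries, against 9452, 5848 and 9950 CPM in the Nrp1 low libraries. Every Nrp1 high library lay far below every Nrp1 low library, and the mean was 13.1-fold lower in Nrp1 high (log2 -3.71 ± 0.29 SE). Ngp (ENSMUSG00000032484, chromosome 9, 110419808 to 110423012), the neutrophilic granule protein, is related to the cathelicidin precursors. It stood at 832.1, 1411 and 951.3 CPM in Nrp1 high, against 15228, 9321 and 12430 CPM in Nrp1 low. The groups did not overlap, and the mean was 11.6-fold lower (log2 -3.53 ± 0.32 SE). In bulk libraries, fewer cells that make these transcripts and less transcript per cell cannot be told apart.

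Ltf and Lcn2 keep iron from microbes. Ltf (ENSMUSG00000032496, chromosome 9, 111019292 to 111042766) encodes lactoferrin, which binds iron directly. It stood at 244.1, 346.8 and 294.6 CPM in Nrp1 high, against 2090, 1564 and 2013 CPM in Nrp1 low, a 6.40-fold lower mean (log2 -2.68 ± 0.24 SE). Lcn2 (ENSMUSG00000026822, chromosome 2, 32384637 to 32387739) encodes lipocalin-2, which binds bacterial siderophores. Its level was 216.6, 125.6 and 173.1 CPM in Nrp1 high, against 733.6, 812.1 and 1232 CPM in Nrp1 low, 5.39-fold lower (log2 -2.43 ± 0.30 SE). Neither gene overlapped between groups, and Lcn2 varied most within the Nrp1 low group, with an SD of 28.9% of its mean.

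Olfm4 and Cd177 mark subsets of neutrophils in humans. Olfm4 (ENSMUSG00000022026, chromosome 14, 80000302 to 80023141) encodes olfactomedin-4, a secreted glycoprotein. It had the lowest counts of the 8 genes, at 19.1, 30.4 and 27.4 CPM in Nrp1 high, against 198.1, 179.7 and 148.6 CPM in Nrp1 low, 6.84-fold lower (log2 -2.77 ± 0.25 SE). Cd177 (ENSMUSG00000052212, chromosome 7, 24743983 to 24760334) encodes a lipid-anchored surface glycoprotein. Its level was 35.2, 60.4 and 37.4 CPM in Nrp1 high, against 387.1, 226.8 and 293.3 CPM in Nrp1 low, 6.83-fold lower (log2 -2.77 ± 0.30 SE). The groups were again apart for both genes.

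Pglyrp1 (ENSMUSG00000030413, chromosome 7, 18884690 to 18890438) encodes a protein that binds peptidoglycan of the bacterial wall. It stood at 113.0, 145.5 and 93.0 CPM in Nrp1 high, against 718.2, 520.3 and 844.5 CPM in Nrp1 low, 5.93-fold lower (log2 -2.57 ± 0.27 SE). Hp (ENSMUSG00000031722, chromosome 8, 109575128 to 109579172) encodes haptoglobin, which captures free haemoglobin. It stood at 832.5, 955.5 and 772.8 CPM in Nrp1 high, against 1595, 1195 and 1587 CPM in Nrp1 low. The groups did not overlap, but the difference was small beside the others, 1.71-fold (log2 -0.77 ± 0.21 SE).

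**Figure D1:**
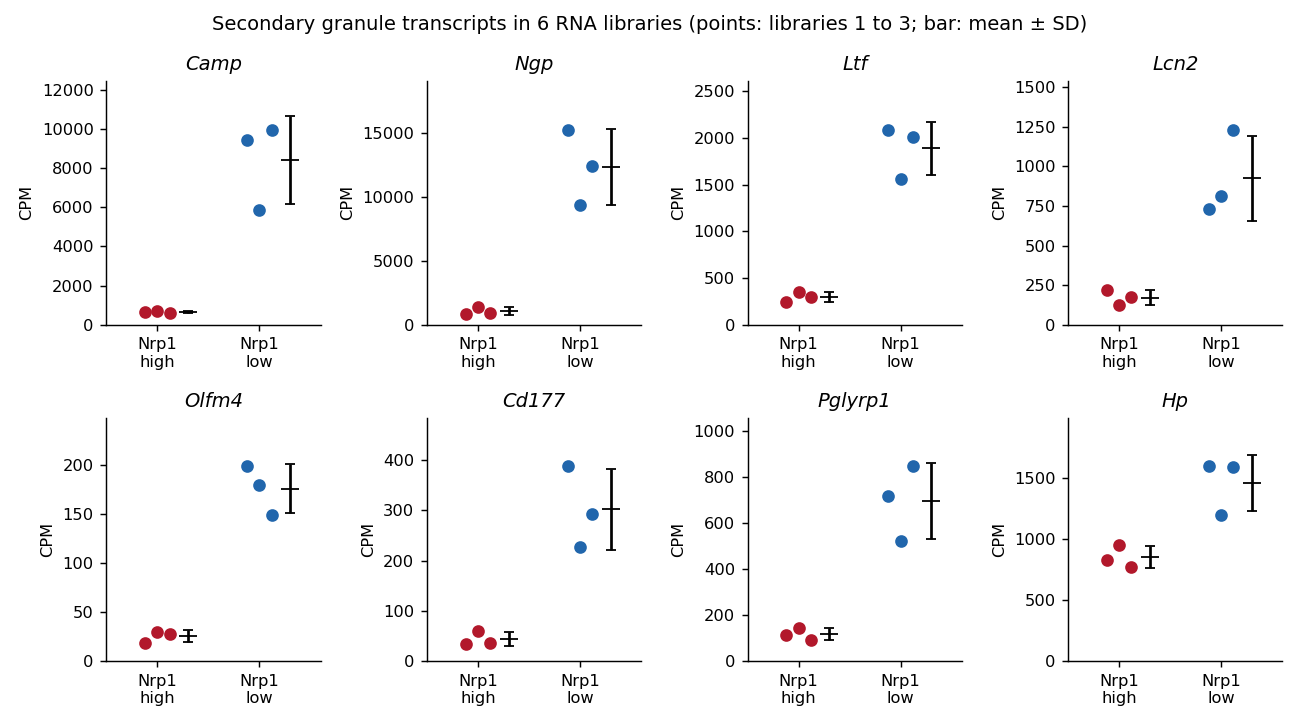
CPM (linear axes from 0) of the 8 genes in the 3 Nrp1 high libraries (red, left) and the 3 Nrp1 low libraries (blue, right), with mean ± SD beside the points. In each gene the 3 Nrp1 high libraries lie below the 3 Nrp1 low libraries, and Hp shows the smallest gap.

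Of the 8 genes, 7 were called lower in edgeR's quasi-likelihood test (Benjamini-Hochberg adjusted p under 0.05, adjusted across every gene tested) and Hp was not (adjusted p = 0.262), with 0.676% of all tested genes called lower. In all 8 every Nrp1 high library lay below every Nrp1 low library, as in 10.8% of all tested genes. Since this contrast chose the members, nothing is read from these counts. The median log2 fold change was -2.72 over the 8 and 0.01 over all tested genes. Without Nrp1 high replicate 3 edgeR called none of the 8 and no gene at all (909 genes at an unadjusted p under 0.05, the 8 included), and without Nrp1 high replicate 1 it called 4. In these 2 fits the log2 fold changes of the 8 ran from -3.71 to -0.71.

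**Figure D2:**
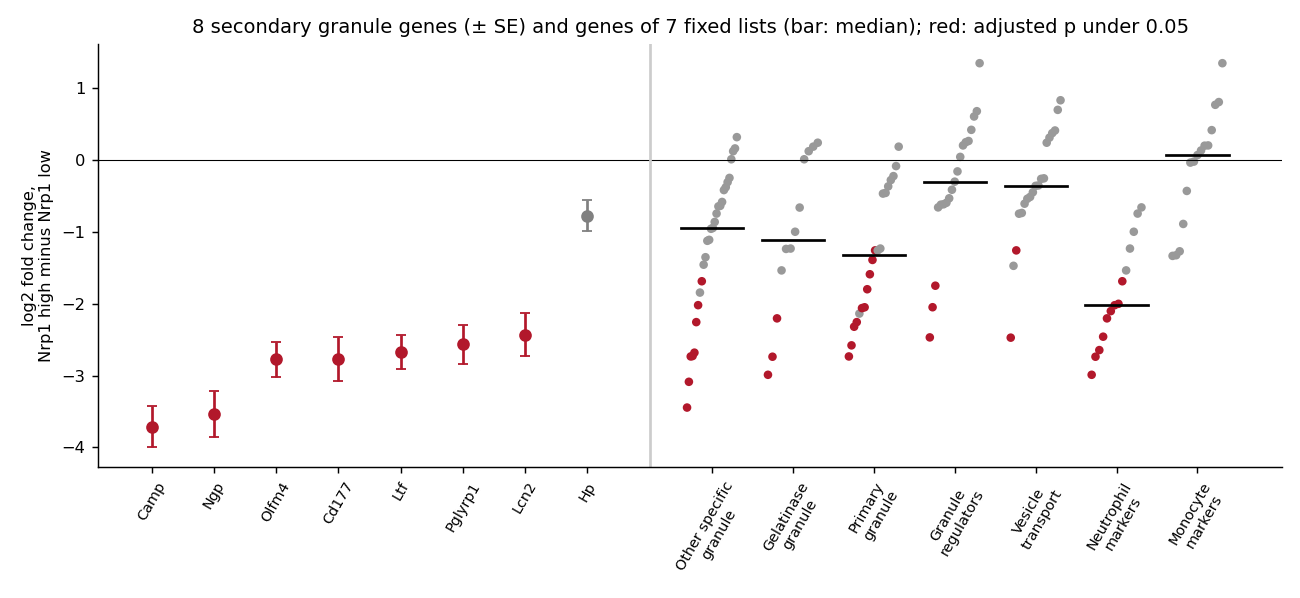
RNA log2 fold change (y axis, Nrp1 high minus Nrp1 low) of the 8 genes with SE, left of the grey line, and of the tested genes of 7 lists, right of it, with list medians as bars. Red marks an adjusted p under 0.05. The members run from -3.71 for Camp to -0.77 for Hp, and no gene of the monocyte list is red in this edgeR fit.

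Ratios between members were taken within each library, where depth and scaling cancel. All 7 ratios to Hp were lower in every Nrp1 high library than in any Nrp1 low library, by a mean of 1.66 to 2.91 on the log2 scale. The log2 ratio of Camp to Hp was -0.37, -0.44 and -0.41 in Nrp1 high, against 2.57, 2.29 and 2.65 in Nrp1 low. It was the largest shift among the 28 pairs, and the size of the ratio itself also depends on transcript length and is not read. Among the 21 pairs without Hp, 8 did not overlap between groups, and each of these set Camp or Ngp against another member. The log2 ratio of Camp to Lcn2 was 1.57, 2.49 and 1.74 in Nrp1 high, against 3.69, 2.85 and 3.01 in Nrp1 low, a mean difference of -1.25. The log2 ratio of Ngp to Cd177 was 4.56, 4.55 and 4.67 in Nrp1 high, against 5.30, 5.36 and 5.41 in Nrp1 low, a mean difference of -0.76. Camp relative to Ngp overlapped (mean difference -0.13), as did all 10 pairs among Ltf, Lcn2, Olfm4, Cd177 and Pglyrp1 (mean differences up to 0.36 in size). The ratios of Camp to Olfm4 and of Ngp to Lcn2 overlapped too. These ratios come from the libraries and the contrast that chose the members, so they are a description with no test, and nothing is read from how many do not overlap.

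**Figure D3:**
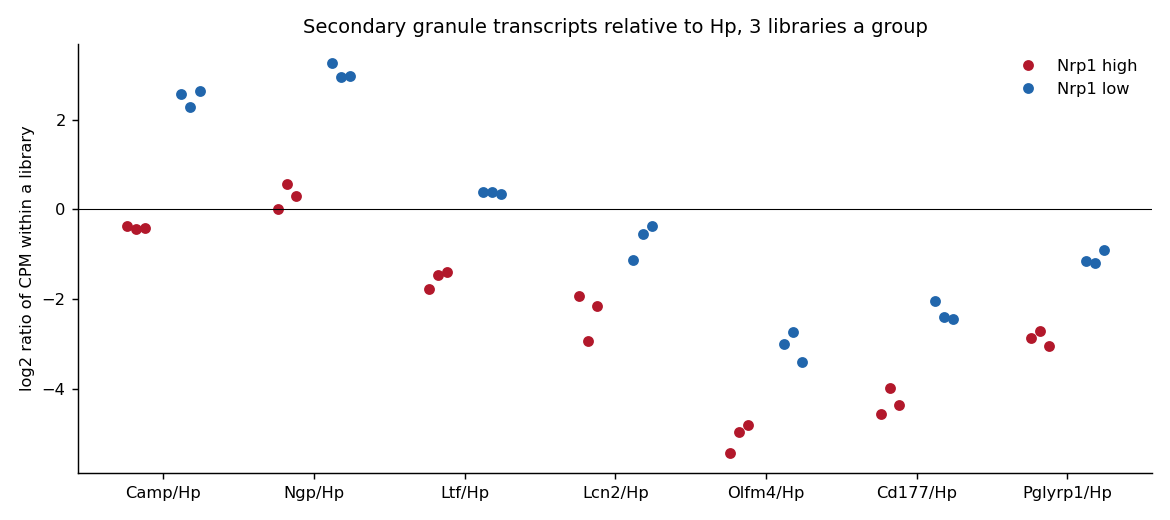
Log2 ratio of the CPM of 7 genes to the CPM of Hp in the same library (y axis), for 3 Nrp1 high libraries (red) and 3 Nrp1 low libraries (blue). For each of the 7 ratios the red points lie below the blue ones.

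Within a group, many members shared the library of their highest or lowest level, but not at every position. Nrp1 high replicate 2 held the highest Nrp1 high level of 7 members, and Lcn2 was the exception, being lowest there. The lowest Nrp1 high level was split, with Ngp, Ltf, Olfm4 and Cd177 lowest in replicate 1 and Camp, Pglyrp1 and Hp in replicate 3. Nrp1 low replicate 2 held the lowest Nrp1 low level of 6 members, while Lcn2 was lowest in Nrp1 low replicate 1 and Olfm4 in replicate 3. Nrp1 low replicate 1 held the highest level of Ngp, Ltf, Olfm4, Cd177 and Hp, and replicate 3 that of Camp, Lcn2 and Pglyrp1. The SD was 9.72 to 31.5% of the mean in the Nrp1 high group and 14.3 to 28.9% in the Nrp1 low group. These orders rest on 3 libraries a group and carry no test.

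The genes nearest to the mean profile of the 8 over the 6 libraries, by root mean square distance of centred log2(CPM + 1), were Fcnb, Cd63, Mrgpra2b, Mrgpra2a and Ms4a3. Their distances were 0.104, 0.127, 0.164, 0.172 and 0.190, with a median of 1.32 over 8277 genes that passed a minimum of 10 CPM. This minimum was not asked of each group. The means of Mrgpra2a were 3.25 (Nrp1 high) and 25.9 CPM (Nrp1 low), and those of Mrgpra2b 5.94 and 45.2 CPM. The members were chosen by their difference in these libraries, so their mean profile holds that difference. The distances are therefore a description, and nothing is read from their gap to the median. Fcnb, a ficolin, stood at 333.0, 395.6 and 298.2 CPM in Nrp1 high, against 2489, 1578 and 2072 CPM in Nrp1 low. Cd63, a tetraspanin of granules and lysosomes, stood at 53.7, 70.2 and 46.6 CPM in Nrp1 high, against 462.8, 280.5 and 391.8 CPM in Nrp1 low. Mrgpra2a and Mrgpra2b are near-identical receptor genes whose reads may be split, so their single values are uncertain. Among the members themselves, Ltf lay nearest to the mean profile (0.0778) and Hp farthest (0.939).

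Other granule proteins were followed in lists that share genes with each other. These lists were made with earlier results of these data known, so their counts are a description. Of all tested genes 0.676% were called lower. Of 28 tested genes whose proteins are tied to specific granules, beside the members, 8 were called lower and 0 higher, and the median log2 fold change was -0.95. Chil3, a chitinase-like protein, had -3.45, Itgb2l, an integrin beta subunit, -3.09, Cd63 -2.73 and Serpinb1a, an inhibitor of neutrophil proteases, -2.26. Some genes of this list are also used by monocytes. Cybb, the catalytic subunit of the NADPH oxidase, averaged 1002 ± 157.0 CPM in the Nrp1 high group, against 896.7 ± 267.0 CPM in the Nrp1 low group (SD, n = 3 each), and Lyz2, lysozyme, had a log2 fold change of -0.58 ± 0.29 SE (edgeR called neither). Cybb and Lyz2 were chosen after their values were seen. Of 12 tested genes on the gelatinase granule list 3 were called lower, with 8 below 0 and 4 above. The 3 were the calprotectin subunits S100a8 at -2.74 and S100a9 at -2.99 and the citrullinating enzyme Padi4 at -2.20. Their place on this list does not show that their proteins lie in these granules. Mmp9, gelatinase B, was at -1.23 and was not called (edgeR adjusted p = 0.0517). Of 20 primary granule genes 10 were called lower, with a median of -1.32, among them Ms4a3, a membrane protein of myeloid progenitors, at -2.32, Fcnb at -2.58 and the serine protease gene Prss57 at -2.05. Without Nrp1 high replicate 3 edgeR called no gene of these 3 lists. Without Nrp1 high replicate 1 it called 4, 1 and 4, and without Nrp1 high replicate 2 it called 5 of the specific granule genes. Without Nrp1 low replicate 3 it called 5 specific granule and 5 primary granule genes. Without Nrp1 low replicate 1 it called 5 genes of the gelatinase granule list.

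Of 19 tested transcription factors and receptors tied to granule genes, 3 were called lower and 0 higher, where 0.676% of all tested genes were called lower. In this list 11 genes lay below 0 and 8 above, with a median log2 fold change of -0.30. Cebpe, the gene of C/EBP epsilon, stood at 51.4, 98.3 and 60.6 CPM in Nrp1 high, against 478.9, 303.0 and 382.0 CPM in Nrp1 low (log2 -2.47 ± 0.31 SE, edgeR adjusted p = 0.0114). Gfi1, a repressor needed for granulocyte differentiation, had -2.05 ± 0.25 SE (edgeR adjusted p = 0.0114), and Klf5, a Kruppel-like factor, -1.75 ± 0.29 SE (edgeR adjusted p = 0.0463). Csf3r, the G-CSF receptor, had -0.66 ± 0.17 SE (edgeR adjusted p = 0.229). None of the 3 was called without Nrp1 high replicate 1, Nrp1 high replicate 3 or Nrp1 low replicate 3, and 1 was called without Nrp1 high replicate 2. Of 16 tested partners of iron and haem 0 were called by edgeR (the lowest adjusted p was 0.0942, for the iron exporter Slc40a1 at -1.35), with 8 below 0 and 8 above, where 3 passed an unadjusted p of 0.05 and DESeq2 called 1, Slc40a1. Of 19 genes of vesicle transport and exocytosis 2 were called lower, Sytl1, a Rab27 effector, at -2.47 and Srgn, the granule proteoglycan serglycin, at -1.26, with 1 or none called under library totals or without any one Nrp1 high library or Nrp1 low replicate 3.

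Markers of neutrophils were read in the libraries and contrast that chose the members, so their counts are a description. Of 15 defining markers, none of them a member, 14 were tested and 9 were called lower, against 0.676% of all tested genes. All 14 lay below 0, with a median of -2.01. Among them were Stfa2l1, a stefin, at -2.65 and Il1r2, a decoy receptor for interleukin-1, at -2.10, beside the calprotectin genes above. Without Nrp1 high replicate 1, high replicate 2, high replicate 3 and low replicate 3, edgeR called 2, 4, 0 and 3 of them. Their summed level was 4807 to 5875 CPM in Nrp1 high, against 24196 to 45207 CPM in Nrp1 low. Most of this sum is S100a8, with means of 3636.5 (Nrp1 high) and 24256 CPM (Nrp1 low), and S100a9, with 1164.1 and 9243.6 CPM. The gap in the sum is thus mainly that of the calprotectin genes and not of the set. Cxcr1 was not analysed here, and none of the others was at 0 in any library. Ly6g, by which mature neutrophils of mice are usually gated, averaged 4.26 ± 2.00 CPM in Nrp1 high, against 8.52 ± 1.26 CPM in Nrp1 low (SD, n = 3 each), a level chosen after it was seen. Of 15 monocyte markers 0 were called by edgeR (the lowest adjusted p was 0.182, and 5 passed an unadjusted p of 0.05). DESeq2 called 3 of them lower, Treml4, Nr4a1 and Cd14, and 1 higher, F13a1, a coagulation factor subunit, at 881.2 ± 36.8 CPM in Nrp1 high against 517.6 ± 96.7 CPM in Nrp1 low. Their summed level was 6661 to 6866 CPM in Nrp1 high against 5717 to 6564 CPM in Nrp1 low. The part of the neutrophil markers in the members' difference was not tested.

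Markers of other blood cells were also read in the contrast that chose the members, so their counts are a description. Of all tested genes 0.676% were called lower. Of 10 megakaryocyte and platelet genes 3 were called lower, and all 10 lay below 0, with a summed level of 18.1 to 26.4 CPM in Nrp1 high against 71.6 to 85.3 CPM in Nrp1 low. The 3 were the platelet genes Ppbp at -3.56, Gp5 at -2.80 and Itga2b at -2.05, of which 1 or none was called under library totals or without any one Nrp1 high library, Nrp1 low replicate 2 or Nrp1 low replicate 3. Of 12 T and NK cell genes 1 was called, Nkg7, a cytotoxic granule protein also in the primary granule list, at -1.80, and its call was lost on leaving out Nrp1 high replicate 1, high replicate 3 or low replicate 3. None of 10 B cell, 10 erythroid or 9 basophil, mast cell and eosinophil genes was called by edgeR. Their lowest adjusted p values were 0.393, 0.351 and 0.104, and 1, 1 and 4 of them passed an unadjusted p of 0.05. DESeq2 called 2 of the last set lower, the eosinophil genes Epx and Siglecf, and none of the others.

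Open chromatin was read next. The authors' deposited table lists a log2 fold and a false discovery rate (FDR) per region, from a comparison whose name reads H against L, and no column states the direction or gives reads per library, so depth is unknown. As deposited, 7 of the 11 member regions had a positive and 4 a negative fold, signs that would all turn if the fold were low over high, with a median of 0.14 against -0.09 over all regions. At FDR under 0.05, 1 was positive and 1 negative, where 2.56% of all regions were called positive and 4.99% negative. No region used here is assigned to Ngp or Lcn2.

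The positive call lay on the start of Camp. In the authors' deposited table the region chr9:109849351-109849750 had a log2 fold of 1.09, or 2.12-fold, with an FDR of 0.00244. It covers all 250 bases of the Camp sequence printed above, and its centre lies 94 bases before the RefSeq start. Read as high over low, its sign is opposite to that of the Camp transcript, and read as low over high it is the same. The deposited columns do not settle which. Pglyrp1 had a region in the same place, chr7:18884465-18884864, over 225 of the 250 printed bases, with a fold of 0.51 and an FDR of 0.0926 in the authors' deposited table. A further region assigned to Pglyrp1, at -11246 bases from its RefSeq start, had -0.42 (FDR 0.328). Hp, whose transcript differed least, had 0.14 at its start (FDR 0.579) and 0.05 in an intergenic region (FDR 0.903).

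The negative call lay inside Ltf. The region chr9:111035543-111035942 had a log2 fold of -0.62 and an FDR of 0.0342 in the authors' deposited table, which places it at the start of an annotated transcript. It lies 16450 bases after the RefSeq start of Ltf, so it is not over the Ltf sequence printed above. Other Ltf regions, 14724 and 18318 bases after that start, had -0.15 (FDR 0.710) and 0.38 (FDR 0.380). Cd177 had 0.27 about a kilobase upstream (FDR 0.641) and -0.07 within the gene (FDR 0.921). The Olfm4 region, at -14934 bases from the RefSeq start, had 0.94, a size near that of Camp, with an FDR of 0.127.

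**Figure D4:**
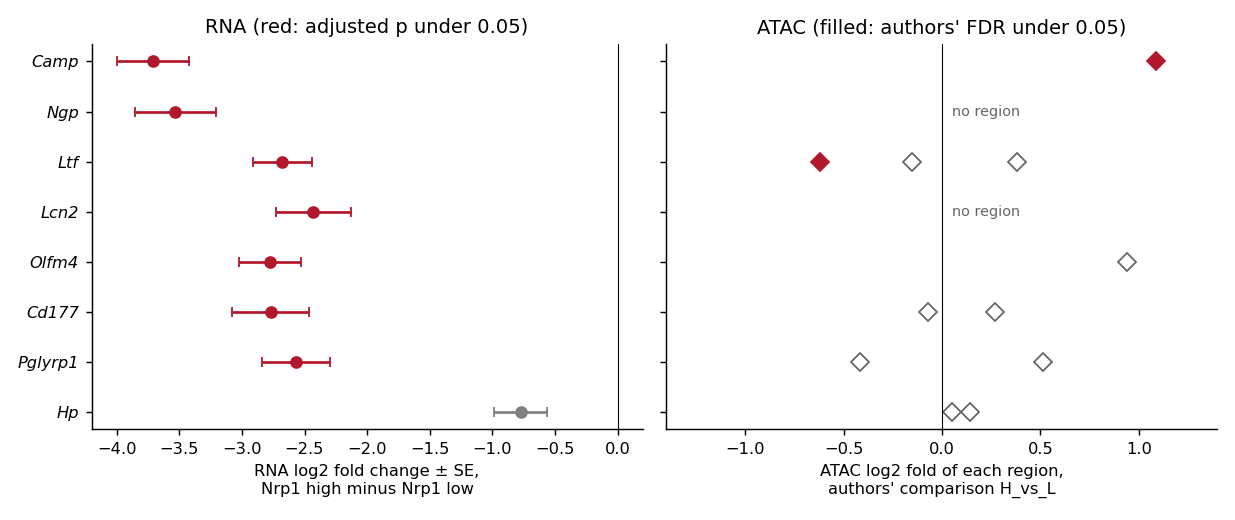
Left, RNA log2 fold change of each gene with SE (red, adjusted p under 0.05). Right, log2 fold of each ATAC region assigned to the gene in the authors' deposited table (filled, FDR under 0.05). All 8 RNA values lie below 0. As deposited, 7 of 11 ATAC folds lie above 0 and Camp's is 1.09, but the direction of the ATAC fold is not stated, and all 11 would change sign if it were low over high.

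Nrp1, the gene sorted on, was read for the direction of the ATAC fold. Of its 8 regions in the authors' deposited table, 2 intronic ones were called positive (FDR 0.000351, with a fold of 1.47, and FDR 0.000833) and 1 was called negative (fold -0.39, FDR 0.0296). Its signs are thus mixed, with both positive calls larger in size than the negative one. The other 98 genes called lower in RNA had 179 regions on 84 of them. Of these regions 19 were called positive and 2 negative, that is 10.6% and 1.12%, against the 2.56% and 4.99% of all regions given above, and their median fold was 0.01. The direction was not tested further, since no value per ATAC library was used.

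Camp, Ngp and Ltf lie on chromosome 9 within 1195 kb, with gaps of 570.4 kb from Camp to Ngp and 596.3 kb from Ngp to Ltf. RefSeq lists 43 other genes in this stretch, and 16 of them were tested in RNA. None of the 16 was called either way by edgeR (the lowest adjusted p was 0.212, for Cdc25a, which DESeq2 called lower, and 2 passed an unadjusted p of 0.05). Their log2 fold changes ran from -1.06 for the cell cycle phosphatase gene Cdc25a to 1.12 for the phosphatase gene Ptpn23, with a median of 0.36. The nearest tested genes on either side of all 8 members, 16 in all, were likewise not called by edgeR, though 6 passed an unadjusted p of 0.05 and DESeq2 called Ceacam10, Cdc25a and Nme6 lower. The lowest was Ceacam10, also in the specific granule list and 16.8 kb from Cd177, at -1.85 ± 0.36 SE (edgeR adjusted p = 0.0879). Some of the 16 lie far off, such as Diaph3 at 6632 kb from Olfm4 and Hif3a at 1822 kb from Pglyrp1. Close by, Ccdc61 lies 0.445 kb from Pglyrp1 and Txnl4b 1.08 kb from Hp. Reads that run past a gene's end could be split there, since no label states whether the counts use strand. In the same stretch the authors' deposited table lists 51 regions, 4 called positive and 3 negative, where 2.56% and 4.99% of all regions were so called. Nothing is read from these counts.

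**Figure D5:**
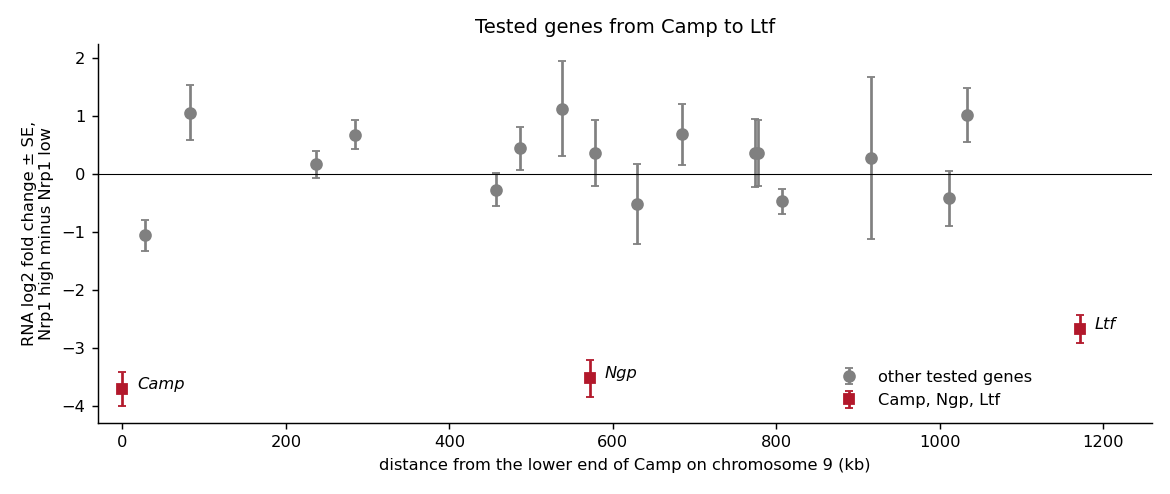
RNA log2 fold change with SE (y axis, Nrp1 high minus Nrp1 low) of the tested genes between Camp and Ltf, against distance in kb from the lower end of Camp. Camp, Ngp and Ltf (red squares) lie at -3.71, -3.53 and -2.68, and the 16 others (grey) between -1.06 and 1.12.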

How the data were processed

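RNA-seq and ATAC-seq of sorted neonatal spleen cells were analysed from tables the authors deposited. RNA was amplified by template switching and sequenced in pairs of 150 bases, per the labels' protocols. The deposited RNA values are estimated counts per gene, whole as deposited, with the build GRCm38 and the tools HISAT2 and StringTie named in the submitters' processing notes. The deposited value 4 occurred 1.22 to 1.53 times as often as the mean of 3 and 5, so the scale of a low count is uncertain. Strand was not stated. Per region of ATAC-seq the authors deposited the log2 fold with its p-value and FDR. Those notes also name MACS2, DiffBind, edgeR, DESeq2 and ChIPseeker, and no source says which of the libraries entered. The labels name a table made with DESeq2 and the deposited one is named for edgeR. The deposited FDR was within 0.000268 of the Benjamini-Hochberg value computed from those p-values.

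Genes were filtered with filterByExpr, then scaled by TMM. The test was that of edgeR 4.0.16 under R 4.3.3 (robust quasi-likelihood F test, group as the only term, Benjamini-Hochberg over all 15541 genes, called under 0.05), after a check on simulated data. SEs were derived from the F statistic. Members and lists were chosen with earlier results of these data known. The genes named are the members, their regions, up to 4 genes of lowest p per list, and the 5 nearest profiles. Groups and replicate numbers come from the sample titles. Nothing says that libraries came from separate animals, so a p-value reflects how far these libraries scatter, and that scatter may be technical. Alternatives were other scalings, filters and thresholds, DESeq2 1.42.0, limma-voom 3.58.1, the replicate number as a block and leaving out each library. Gene coordinates and promoter sequences are RefSeq's on GRCm38.p6, matched by symbol.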

Additional observations from a re-analysis of the deposited data

How the results depend on the processing

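All 8 members kept a negative log2 fold change under each of the 14 other fits run for it (112 values, 0 of opposite sign). Of these, 20 lost and 1 gained a call, the gain being Hp with DESeq2 (adjusted p = 0.0352). Over those fits Hp had adjusted p from 0.0352 to 0.821. RLE, upper-quartile and library-total scaling, voom and the other filters left the count of members called at 7. Library totals moved all log2 folds by a median of 0.19, and Camp then stood at -3.50. Leaving out 1 library gave 0 to 7 members and 0 to 125 genes called. At a threshold of 0.01 edgeR called 39 genes, and DESeq2 called 403 at 0.05 (326 lower and 77 higher, against 105 and 1 in edgeR).

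Under a replicate block edgeR called 0 members and 0 of all genes (943 at an unadjusted p under 0.05), with adjusted p of 0.0818 for Camp. The deviations of same-numbered libraries had r of -0.34, -0.39 and 0.03 over genes. No label says that a number marks a shared animal or day, and whether the libraries were prepared in pairs is not known. The cause of these losses was not tested.

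Of the 2 ATAC calls, 1 passed an FDR of 0.01, that of Camp, and both lie within 1000 bases of the transcript start used by the authors. No ATAC library could be left out. The largest shift among the ratios between members was 2.84 to 3.01 without any one library, an alternative chosen after seeing the data. Of 104 list counts under other scalings or without a library, 32 moved by over 1.5 times, and none held a gene called higher.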

Other observations

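Called ATAC regions also lie near members without being assigned to them. In the authors' deposited table a region 3.72 kb from Hp, assigned to the splicing gene Txnl4b, had a log2 fold of 1.42 and an FDR of 0.000372, above the fold at the start of Hp. A region 28.5 kb from Cd177, assigned to Lypd10, had 1.10 (FDR 0.0266). A region at the start of Ptpn23, 11.4 kb from Ngp, had -0.36 (FDR 0.0380). These 3 were the called ones among the 32 regions within 50 kb of a member and assigned to another gene, and they were chosen after their values were seen. Over the whole deposited comparison 2.56% of regions were called positive and 4.99% negative, and nothing is read from the count of 3.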
